A study of Homo sapiens with 2 samples.

Results

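The small nucleolar RNA (snoRNA) host long noncoding RNAs were examined in cells of the established human fibrosarcoma line HT1080 after an shRNA against cMyc. They were taken as the genes whose array symbol is DANCR, ZFAS1 or SNHG followed by a number, which gave 11 of the 14884 named genes. Each of the 11 was read by 1 of the array's 53617 probe sets. DANCR, SNHG15, SNHG16 and ZFAS1 were chosen by their log2 differences on these same 2 arrays, and the rest by symbol, so the values below are a description and no test was made on them. RefSeq lists 29 genes with an SNHG number, of which 9 had a probe set with a single gene symbol. The others were not analysed here, and any probe set that lists several symbols was left out.

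A cMyc shRNA array and a non-targeting control shRNA array were compared, with 1 sample in each group. The cells of both carried a virus with an shRNA and were taken 48 hours after infection, per the labels' protocols, although the series' design text speaks of transfection. How many hairpins were used, and their sequences, is not given in the sources used here. Without replicates there is no spread between cultures and no p-value, and every value describes these 2 arrays.

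A snoRNA host gene is transcribed and spliced, and the snoRNAs are trimmed out of its introns. C/D box snoRNAs guide ribose methylation of ribosomal RNA, H/ACA box snoRNAs guide pseudouridine formation, and small Cajal body RNAs (scaRNAs) do the same for spliceosomal RNAs. The spliced exons of a noncoding host are often degraded by nonsense-mediated decay, and many hosts start transcription in a pyrimidine tract, as ribosomal protein genes do. Cells that make many ribosomes need these small RNAs, and MYC is a transcription factor known for driving ribosome production.

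RefSeq placed named small RNA genes inside all 11 host genes and classed all 11 as lncRNA. DANCR (SNORA26), SNHG15 (SNORA9), SNHG8 (SNORA24), SNHG17 (SNORA71A to SNORA71D) and SNHG33 (SNORA63D and SNORA63E) hold H/ACA genes. SNHG16 (SNORD1A, SNORD1B and SNORD1C), SNHG5 (SNORD50A and SNORD50B), SNHG18 (SNORD123) and ZFAS1 (SNORD12, SNORD12B and SNORD12C) hold C/D genes. SNHG20 (SCARNA16) and SNHG10 (SCARNA13) hold a scaRNA gene each.

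The values are log2 levels as deposited, with array medians of 3.73 for the cMyc shRNA and 3.68 for the control shRNA over all probe sets. A gene counted as measured when the mean of both arrays reached the median over all probe sets, 3.70, and all 11 hosts did, as 1 of 10258 measured named genes each. MYC itself, the target, read 6.16 on the cMyc shRNA array and 7.09 on the control array, 1.91-fold lower. The label of the line could be checked in part: 8 of 10 named mesenchymal markers were measured, with log2 levels up to 12.6 on the cMyc shRNA array and 12.4 on the control array, both for fibronectin (FN1). Of the endothelial markers 0 of 3 and of the haematopoietic ones 1 of 3 were measured, and of the epithelial ones 4 of 10, among them the keratin KRT18 at 8.41 on the cMyc shRNA array and 9.09 on the control array. LUM and S100A4 of the mesenchymal list and EPCAM of the epithelial list lay below the filter.

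Of the 11 host RNAs, 4 were at least 2-fold lower on the cMyc shRNA array, where 4.0% of all measured named genes were. Among these 4, DANCR, SNHG16 and SNHG15 were chosen by these same differences, and only SNHG8 entered by symbol. The counts and the median below are therefore in part set by that choice. At least 2-fold higher were 0 of 11, against 2.01% of all measured named genes. A total of 10 of 11 had a difference below 0, against 51.3% of all measured named genes. The median log2 difference, cMyc shRNA minus control, was -0.33 over the hosts and -0.01 over all measured named genes. The differences ran from -1.37 for DANCR to 0.63 for SNHG33. In bulk RNA, a lower level in every cell and fewer cells holding the RNA cannot be told apart.

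**Figure D1:**
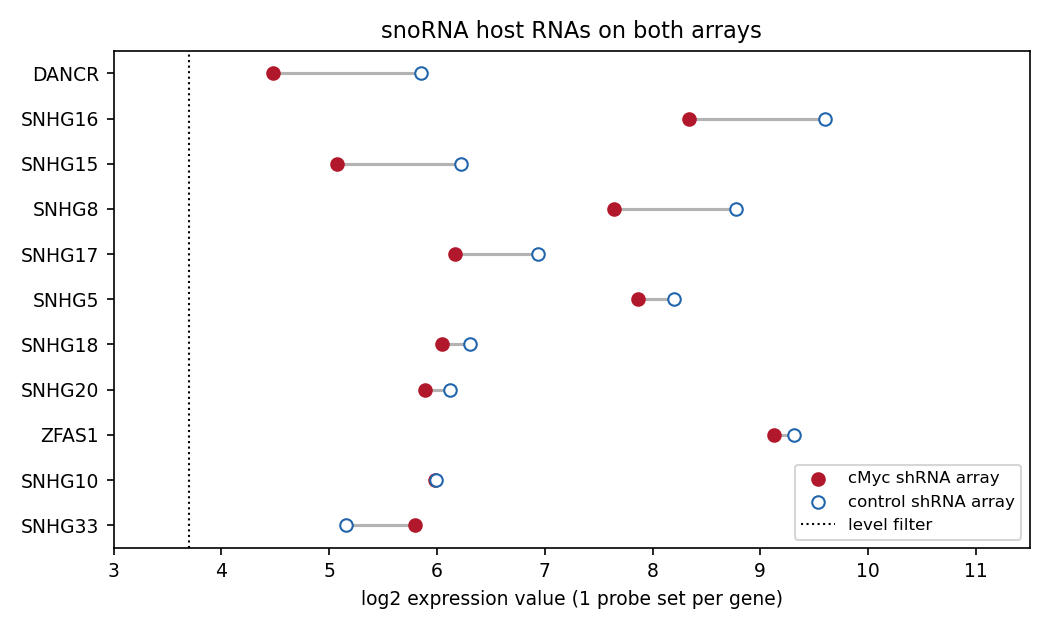
Log2 expression values (horizontal axis) of the 11 snoRNA host RNAs on the cMyc shRNA array (filled) and the control shRNA array (open), 1 array each, ordered by their difference. DANCR, SNHG16, SNHG15 and SNHG8 are the widest apart, SNHG10 is nearly the same on both, and SNHG33 alone is higher on the cMyc shRNA array. Levels of different genes come from different probes and are not to be compared.

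The one measure of error in the table is technical. Where a gene had several measured probe sets (416 genes), the spread between its 2 brightest gave an SD of 0.34 for a single log2 difference, and a gap between 2 genes has an SD of 0.48 by the same reckoning. This SD does not hold the variation between cultures. Of the 11 hosts 6 differed by more than 0.34 in either direction and 5 by less. The share of all measured named genes past 0.34 was not counted, so this is not read as a trait of the hosts. At 1.5-fold, 5 hosts were lower and 1 higher, beside 1224 lower and 900 higher of all 10258 measured named genes.

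Among the H/ACA hosts, DANCR, a long noncoding RNA named for holding back the differentiation of epidermal progenitors, had the lowest difference. Its probe set (16966712, Entrez gene 57291) read 4.48 on the cMyc shRNA array and 5.85 on the control array. The log2 difference of -1.37 is 2.59-fold lower. Only 1.65% of the measured named genes had a lower difference.

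SNHG15, known as a short-lived RNA, read 5.08 on the cMyc shRNA array and 6.22 on the control array (probe set 17057413, Entrez gene 285958), a difference of -1.15 or 2.21-fold lower. SNHG8, the host of SNORA24, read 7.65 on the cMyc shRNA array and 8.78 on the control array (probe set 16970068, Entrez gene 100093630), a difference of -1.13 or 2.19-fold lower. These 2 hosts differed from each other by 0.02 and from DANCR by at most 0.24, inside the SD of a gap. SNHG17, which carries the SNORA71 group, read 6.16 on the cMyc shRNA array and 6.94 on the control array (probe set 16919209), a difference of -0.77 or 1.71-fold lower. It did not reach 2-fold, and it lay 0.36 above SNHG8 and 0.45 below SNHG5, both inside the SD of a gap.

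SNHG33 was the one host with a difference above 0 as deposited. It read 5.79 on the cMyc shRNA array and 5.16 on the control array (probe set 16948555, Entrez gene 100505687), a difference of 0.63 or 1.55-fold higher. The gap to SNHG10, the next host, was 0.65, larger than the SD of a gap. Its direction was thus opposite to that of the other 4 H/ACA hosts.

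Among the C/D hosts, SNHG16, also called ncRAN and described in neuroblastoma, read 8.34 on the cMyc shRNA array and 9.60 on the control array (probe set 16838094, Entrez gene 100507246). The difference of -1.26 is 2.39-fold lower, and 2.14% of the measured named genes had a lower one. The other C/D hosts lay nearer to 0. SNHG5, the host of the U50 snoRNAs, read 7.87 on the cMyc shRNA array and 8.20 on the control array, a difference of -0.33.

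SNHG18 read 6.05 on the cMyc shRNA array and 6.30 on the control array, a difference of -0.25. ZFAS1, which lies beside the start of the zinc finger gene ZNFX1 and is also called ZNFX1-AS1, read 9.13 on the cMyc shRNA array and 9.31 on the control array, a difference of -0.18. All 3 are inside the technical SD of 0.34. Between SNHG16 and ZFAS1 the gap was 1.08, more than the SD of a gap.

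The scaRNA hosts both lay inside the technical SD. SNHG20 read 5.89 on the cMyc shRNA array and 6.12 on the control array, a difference of -0.23. SNHG10 read 5.98 on the cMyc shRNA array and 5.99 on the control array, a difference of -0.01, the nearest to 0 of the 11. Its sign turned to 0.04 after quantile normalization, so no direction can be given for it.

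**Figure D2:**
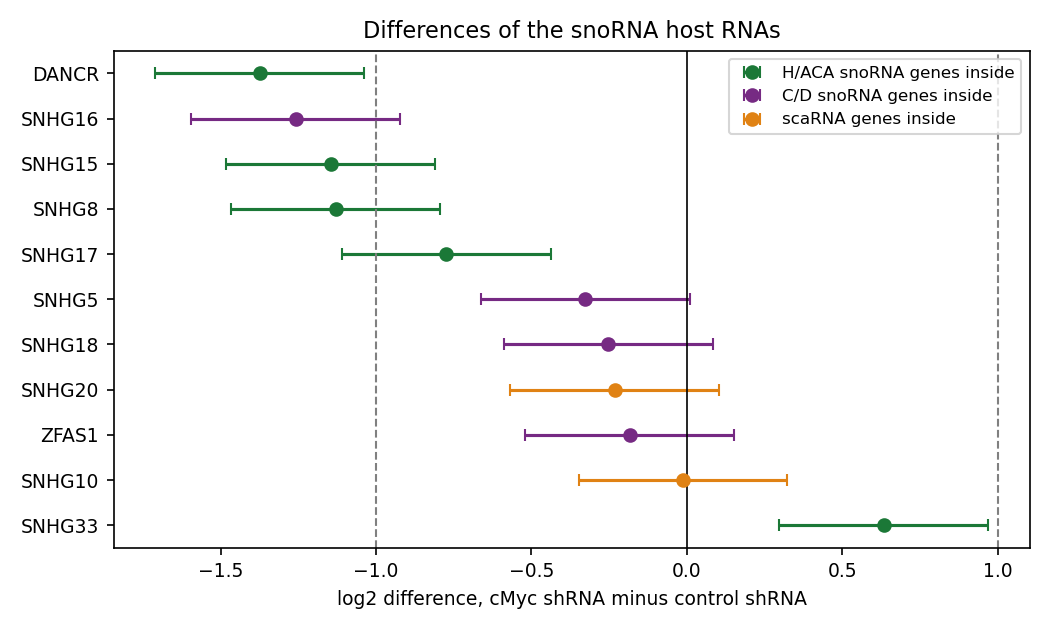
Log2 difference, cMyc shRNA minus control shRNA, of the 11 snoRNA host RNAs (horizontal axis), coloured by the class of small RNA gene that RefSeq places inside each. Bars are the technical SD of 0.34 between probe sets, not a spread between cultures, and dashed lines mark 2-fold. The bars of DANCR, SNHG16, SNHG15, SNHG8 and SNHG17 lie wholly below 0, and that of SNHG33 lies wholly above 0. DANCR, SNHG16 and SNHG15 were chosen by these same differences.

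Sorted by the class of small RNA inside, a grouping made after the values were seen, the medians were -1.13 for the 5 H/ACA hosts, -0.29 for the 4 C/D hosts and -0.12 for the 2 scaRNA hosts. At least 2-fold lower were 3 of 5 H/ACA hosts, 1 of 4 C/D hosts and 0 of 2 scaRNA hosts, against 4.0% of all measured named genes. Of the hosts counted, DANCR, SNHG15 and SNHG16 were chosen by these same differences. The ranges of the H/ACA hosts (-1.37 to 0.63) and of the C/D hosts (-1.26 to -0.18) overlapped. The same sorting of genes outside the family showed no such order. Over the other measured named genes that hold a named small RNA gene in their RefSeq interval, on either strand, the median was -0.19 for 63 genes with H/ACA RNAs alone, -0.17 for 59 with C/D RNAs alone and -0.21 for 12 with scaRNAs alone. Of these, in the same order, 4.76%, 6.78% and 0% were at least 2-fold lower.

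Few of the small RNAs themselves could be read here. Of the small RNA genes inside the 11 hosts, only SCARNA16 had a probe set with a single symbol, and any probe set listing several symbols was left out. It read 8.09 on the cMyc shRNA array and 8.13 on the control array, a difference of -0.04, beside -0.23 for its host SNHG20. Both lie inside the technical SD.

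The share of genes past 2-fold changed with the log2 value of the probe set, so each host was placed among genes of like value. DANCR lay in the lowest of 3 equal level groups of measured genes, where 1.90% of genes were at least 2-fold lower. SNHG15 lay in the middle group with 5 other hosts, where 6.14% were. SNHG16 and SNHG8 lay in the highest group with SNHG5 and ZFAS1, where 3.95% were.

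**Figure D3:**
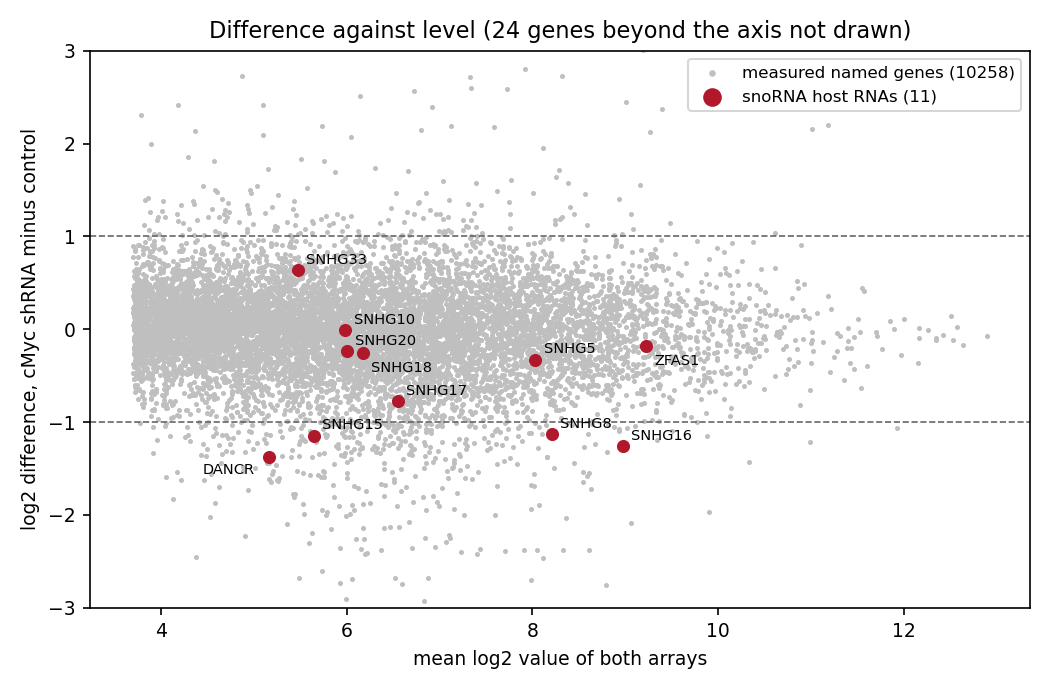
Log2 difference (vertical axis) against the mean log2 value of both arrays (horizontal axis) for the 10258 measured named genes (grey) and the 11 snoRNA host RNAs (red), with dashed lines at 2-fold. DANCR, SNHG15, SNHG8 and SNHG16 lie below the lower line, and 24 genes beyond the axis are not drawn.

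Promoters of the hosts were read from RefSeq (GRCh38.p14), each covering 250 bases before to 50 after the start. The table held 10 of the 11 hosts, all but SNHG15, with 2 overlapping windows for SNHG33 and 11 windows in all. Those of DANCR, SNHG16 and SNHG8, past 2-fold, and of SNHG10, the host nearest to 0, are shown so that the lowest differences and the smallest one can be set side by side. Each is written 5′ to 3′ on the strand of the gene, and capitals mark CCAAT on either strand (ATTGG on the other), and CACGCG on either strand (CGCGTG on the other). DANCR is at chr4:52712144-52712443, plus strand, SNHG16 at chr17:76557514-76557813, plus strand, SNHG8 at chr4:118278512-118278811, plus strand, and SNHG10 at chr14:95534823-95535122, minus strand.
DANCR: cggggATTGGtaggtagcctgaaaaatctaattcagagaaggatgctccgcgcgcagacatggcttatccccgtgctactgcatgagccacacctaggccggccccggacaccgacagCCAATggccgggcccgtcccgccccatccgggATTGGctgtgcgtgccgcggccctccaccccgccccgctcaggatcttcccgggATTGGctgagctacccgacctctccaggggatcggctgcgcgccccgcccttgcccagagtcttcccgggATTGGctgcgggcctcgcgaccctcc
SNHG16: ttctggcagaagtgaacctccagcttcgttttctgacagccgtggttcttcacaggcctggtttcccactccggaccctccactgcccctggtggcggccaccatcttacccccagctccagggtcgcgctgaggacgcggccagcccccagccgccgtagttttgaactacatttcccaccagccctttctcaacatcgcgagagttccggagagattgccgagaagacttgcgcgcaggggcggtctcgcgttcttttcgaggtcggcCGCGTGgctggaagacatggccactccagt
SNHG8: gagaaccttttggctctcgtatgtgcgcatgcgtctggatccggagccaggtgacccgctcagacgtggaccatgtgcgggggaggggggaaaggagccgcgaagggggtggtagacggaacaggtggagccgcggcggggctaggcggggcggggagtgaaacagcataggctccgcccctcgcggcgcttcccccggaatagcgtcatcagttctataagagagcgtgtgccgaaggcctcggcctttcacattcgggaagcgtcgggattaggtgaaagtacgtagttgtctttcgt
SNHG10: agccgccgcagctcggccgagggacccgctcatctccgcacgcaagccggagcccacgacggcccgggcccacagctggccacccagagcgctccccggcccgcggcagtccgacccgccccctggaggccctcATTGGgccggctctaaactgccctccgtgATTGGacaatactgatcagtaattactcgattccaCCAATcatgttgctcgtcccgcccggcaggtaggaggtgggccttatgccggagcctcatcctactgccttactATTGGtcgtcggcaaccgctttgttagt

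The letters CACGTG, the E-box that MYC and MAX can bind, were found in 0 of the 11 host windows, against 7.26% of all 35114 promoters in the table. CACGCG, a related form searched on both strands, was in 1 of 11 windows, that of SNHG16, against 11.4% of all promoters. TATAAA, on the strand of the gene, was in 0 of 11 windows, against 7.33%. The absence of these letters concerns this window of 300 bases alone.

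CCAAT, the box bound by NF-Y, was found on either strand in 5 of 11 windows, those of DANCR, SNHG10 and SNHG5 and both of SNHG33, against 34.6% of all promoters. The window of DANCR held 5 matches and that of SNHG10 held 4, while 0.991% of all promoters held 4 or more. These 2 hosts had the lowest difference and the one nearest to 0. A C followed by at least 4 pyrimidines, beginning within 20 bases of the start, was in 9 of 11 windows, all but that of SNHG10 and 1 of the 2 of SNHG33, against 49.8% of all promoters.

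Genes next to the hosts are given for comparison, chosen after the values were seen as the named protein-coding genes within 20 kb in RefSeq. Beside SNHG16 (-1.26), CYGB, which encodes cytoglobin, differed by 0.11, with 5.22 on the cMyc shRNA array and 5.11 on the control array. PRCD, on the same side, differed by 0.01. Beside SNHG15 (-1.15), MYO1G, a class I myosin, differed by -0.52 and CCM2, a scaffold protein, by 0.22.

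GLRX5, a mitochondrial glutaredoxin of iron-sulfur cluster assembly, starts 178 bases from SNHG10 on the opposite strand. It read 5.35 on the cMyc shRNA array and 5.96 on the control array, a difference of -0.61, while SNHG10 differed by -0.01. Beside SNHG33 (0.63), MCF2L2, an exchange factor gene, had a difference of the same sign, 0.25, but lay below the level filter, at 3.46 on the cMyc shRNA array and 3.21 on the control array. All of these neighbours lay within 2-fold, as did most genes: 4.0% of all measured named genes were at least 2-fold lower and 2.01% higher. DANCR, SNHG8 and the remaining hosts had no such neighbour with a single-symbol probe set.

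Of long noncoding hosts outside the naming rule, a list of 6 made by hand had 2 measured members, and both had differences below 0. GAS5, a host of many C/D snoRNAs that accumulates in growth-arrested cells, read 8.38 on the cMyc shRNA array and 8.82 on the control array, a difference of -0.44. EPB41L4A-AS1, the host of SNORA13, read 6.89 on the cMyc shRNA array and 7.57 on the control array, a difference of -0.68. Both exceed the technical SD and neither reached 2-fold. MEG3 was named on the array but lay below the level filter, at 2.71 on the cMyc shRNA array and 2.93 on the control array.

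Protein-coding snoRNA hosts were taken from a list of 71 genes made by hand, which is partial, and 25 of them had a single-symbol probe set. Of its 25 measured genes, 2 reached 2-fold lower, 0 reached 2-fold higher and 21 were below 0, against 4.0%, 2.01% and 51.3% of all measured named genes, and their median was -0.20. In this list RPL30, a ribosomal protein gene, was the lowest, with 5.06 on the cMyc shRNA array and 6.21 on the control array (-1.15), followed by EP400, a chromatin remodeller (-1.12). CHD8, another chromatin remodeller, was its highest at 0.45, and KPNA4, an importin, its nearest to 0 at 0.01. Probes for ribosomal protein genes can also read their pseudogenes.

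Proteins that bind snoRNAs or assemble them into particles (snoRNPs) had a median of -0.51 over 17 measured genes of 22 listed. Below 0 were 15, and 2 were at least 2-fold lower, against 51.3% and 4.0% of all measured named genes. Fibrillarin (FBL), the methyltransferase of C/D particles, read 8.15 on the cMyc shRNA array and 9.46 on the control array, 2.49-fold lower. TCOF1, the nucleolar protein treacle, read 6.04 on the cMyc shRNA array and 7.36 on the control array, also 2.49-fold lower.

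Of the core proteins, SNU13 of the C/D particle differed by -0.95 and NOP58 by -0.41. Of the H/ACA particle, NHP2 differed by -0.56, GAR1 by -0.41 and NOP10 by 0.11, and its assembly factor NAF1 by -0.85. The lariat debranching enzyme DBR1, which opens the introns that snoRNAs come from, was the nearest to 0 at -0.03, and the cochaperone subunit RPAP3 was the highest at 0.31.

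Factors of nonsense-mediated and general mRNA decay went both ways. Of 20 listed, 9 were measured. Of these 9, 2 reached 2-fold higher and 0 reached 2-fold lower, with 5 below 0 and a median of -0.26. Of all measured named genes 2.01% were past 2-fold higher, 4.0% past 2-fold lower and 51.3% below 0. XRN1, the exonuclease that digests decapped RNA from its 5′ end, read 9.15 on the cMyc shRNA array and 7.43 on the control array, 3.28-fold higher. DCP2, the decapping enzyme, read 7.79 on the cMyc shRNA array and 6.72 on the control array, 2.09-fold higher. UPF1, the helicase at the centre of nonsense-mediated decay, was the lowest at -0.68, and EDC4, a scaffold of decapping, was the nearest to 0 at 0.18.

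Long noncoding RNA genes outside the family were spread about 0. Of 563 measured, 1.78% were at least 2-fold lower, 1.60% at least 2-fold higher and 50.1% below 0, with a median of -0.0007. The lowest of them was SERTAD4-AS1 at -1.56 and the highest MIR31HG, the host of a microRNA, at 2.19. DANCR, SNHG16, SNHG15 and SNHG8 lay inside this range, towards its low end. With 1 array per group, no test of the family against these genes was made.

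**Figure D4:**
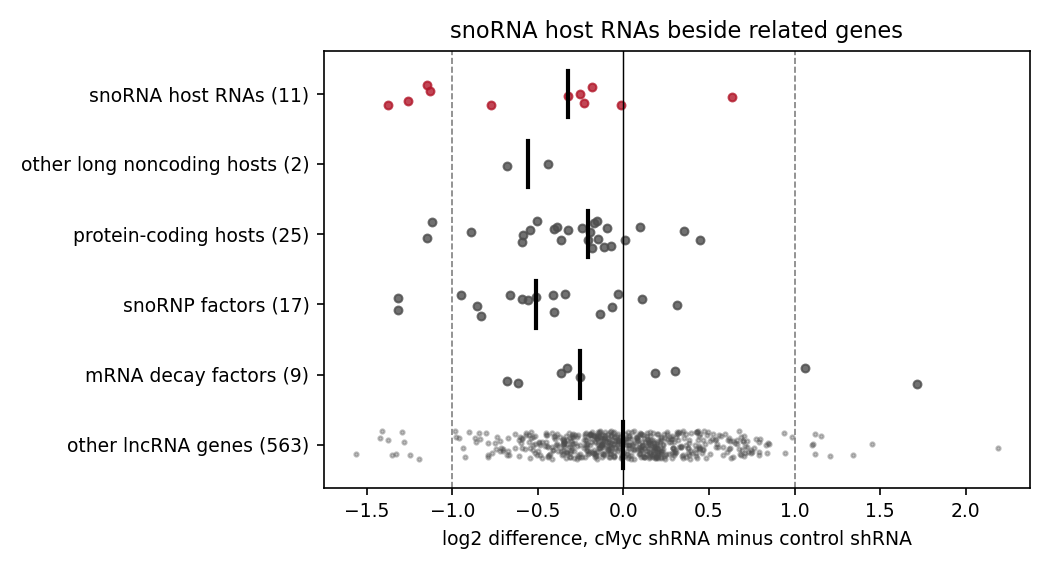
Log2 difference, cMyc shRNA minus control shRNA (horizontal axis), for each measured gene of 6 groups, with the number of genes in brackets, vertical bars at the medians and dashed lines at 2-fold. Vertical scatter within a group has no meaning. The medians of the snoRNA host RNAs (-0.33), the other long noncoding hosts (-0.56, 2 genes) and the protein-coding hosts (-0.20) lie below 0. So do those of the snoRNP factors (-0.51) and the mRNA decay factors (-0.26), and that of the other lncRNA genes lies at 0.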

How the data were processed

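Levels of HT1080 RNA were measured on Affymetrix Human Gene 2.0 ST arrays, 1 per group. The authors deposited log2 expression values made with Affymetrix Expression Console, per the submitters' processing notes. The sources used here give neither its version nor its background correction and normalization, and the log base was inferred from the range of 1.41 to 13.9, so folds assume base 2. Names came from GEO's platform annotation, for the 16098 probe sets with a single symbol, and all their Entrez identifiers matched RefSeq (GRCh38.p14). Probe sets listing several symbols were treated as unnamed, like those with none. A gene with several probe sets was read from the brightest. The table has no detection calls or scanner intensities, and the 2 arrays limit the precision.

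Differences are the cMyc shRNA value minus the control value. With 1 array per group no test was run, and genes were counted by a 2-fold rule. The members and lists were chosen with earlier results of these data known. Every host is named, and of each related list the genes past 2-fold, the lowest, the highest and the one nearest to 0; others were chosen after their values were seen. Alternatives were 3 scalings, 2 level filters, 2 probe set rules and 2 size rules. Calculations used statsmodels 0.14.6, pandas 2.3.3, numpy 2.4.6 and Python 3.11.15, and were tested on simulated data.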

Additional observations from a re-analysis of the deposited data

How the results depend on the processing

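The hosts kept near their values under the 3 scalings. Over these and the mean over probe sets, all 48 values of the hosts and MYC moved by less than 0.34. The sorted values of the 2 arrays already differed by at most 0.12. Centring and quantile normalization could therefore move a difference only a little, and this stability is no test of the differences. The mean over probe sets could not move a host, as each has 1 probe set, and it left MYC unchanged. Centring on medians shifted every difference alike. DANCR stayed between -1.42 and -1.37 and SNHG16 between -1.30 and -1.22. SNHG15 stayed between -1.19 and -1.12 and SNHG8 between -1.18 and -1.09. The median of the hosts lay between -0.37 and -0.29. Below 0 were 10 hosts, or 9 after quantile normalization, where SNHG10 changed sign. The count of hosts at least 2-fold lower was 4 under the scalings and without a level filter. At the 75th percentile filter DANCR and SNHG33, the hosts with the lowest mean values, dropped out. That left 3 hosts at least 2-fold lower and 9 below 0. The probe set rules could not change these counts. The count of lower hosts was 5 at 1.5-fold and 0 at 3-fold, and 1 host was higher at 1.5-fold. Among all measured named genes, the size rule gave 1224 lower and 900 higher at 1.5-fold and 113 lower and 61 higher at 3-fold. The 75th percentile filter, which holds fewer genes, gave 311 lower and 126 higher. Their share of the genes kept is not given, so the host counts at this filter are not read against it. No paired analysis was possible because each group has 1 array. The level of a dim probe set over background is unknown without detection calls.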

Other observations

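Small RNAs of other SNHG genes had named probe sets in some cases. SCARNA17, inside SNHG22 by its RefSeq synonym, read 8.42 on the cMyc shRNA array and 8.92 on the control array, a difference of -0.50. SCARNA15, the RNA of SNHG21, lay below the level filter at 2.29 on the cMyc shRNA array and 3.17 on the control array.

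Among all 138 other measured named genes with a named small RNA gene in their RefSeq interval, 7 were at least 2-fold lower, 1 was at least 2-fold higher and 95 were below 0, with a median of -0.19. These are 5.07%, 0.725% and 68.8% of them, against 4.0%, 2.01% and 51.3% of all measured named genes. The list was made after the values were seen, and interval overlap ignores strand. Its lowest genes were KIF2C, a kinesin of chromosome segregation, at -2.61 and BUB1, a spindle checkpoint kinase, at -2.13. Its highest was COX7C, a subunit of cytochrome c oxidase, at 1.37. The order of the small RNA classes seen among the 11 hosts did not appear among these genes, with medians of -0.19, -0.17 and -0.21 for H/ACA, C/D and scaRNA genes alone.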
